A study of Homo sapiens with 12 samples.

Results

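The comparison concerns the response of SUM159 cells to JQ1, and it uses 4 of the 12 libraries of the series. SUM159 is an established triple-negative breast cancer line with a mesenchymal appearance. The libraries with JQ1 came from cells given JQ1 at 300 nM alone and from cells given JQ1 at 300 nM together with GSK2801 at 10 µM. The libraries without JQ1 came from cells given the solvent DMSO and from cells given GSK2801 at 10 µM alone. All 4 were collected at 72 h, from cells in DMEM/F12 medium supplemented with serum and with insulin plus hydrocortisone, and each treatment had 1 library. The members were chosen by the treatment in the labels, so that 2 libraries with JQ1 stood against 2 without it and formed 2 pairs, JQ1 over DMSO and JQ1 with GSK2801 over GSK2801. The other 8 libraries are the same 4 treatments in MDAMB231 cells, with JQ1 at 100 nM in the same medium, and in HCC1806 cells, with JQ1 at 500 nM in RPMI medium with serum. Cell line and JQ1 dose therefore differ together, for HCC1806 also the medium, and their parts cannot be told apart.

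JQ1 is a small molecule that occupies the acetyl-lysine pockets of the BET family of bromodomain proteins and so displaces them from acetylated chromatin. BET proteins help to bring the elongation kinase P-TEFb to promoters and enhancers, and genes that depend on large enhancers, often genes of a cell's identity, are known to be sensitive to their loss. GSK2801 binds the bromodomains of BAZ2A and BAZ2B. In triple-negative breast cancer, BET inhibitors are studied because they slow growth, and resistance to them is known.

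The SUM159 libraries held between 24193692 and 33496697 estimated reads, within the range of 24193692 to 46802137 over all 12, and between 15853 and 16797 genes with a value above 0. Deposited values are estimated read counts that the authors scaled by library, so they are not corrected for gene length, and levels are compared here only within a gene. The 10 genes with the highest values took 6.49% and 6.87% of the signal in the libraries with JQ1, against 4.36% and 4.82% in those without. In each pair of values given below, the library without GSK2801 stands before the library with it. HEXIM1, which encodes an inhibitor of P-TEFb and whose transcript is often measured to show BET inhibitor exposure, stood at 7082 and 9756 in the libraries with JQ1, against 2928 and 3029 in those without. The 2 groups did not overlap, and the direction fitted the labels of both pairs. The line label was set against marker genes. VIM, an intermediate filament of mesenchymal cells, lay between 90380 and 142226 in SUM159, and ZEB1, a repressor of epithelial genes, between 1540 and 2270. EPCAM, an epithelial adhesion protein, lay between 0.9 and 7.9 in SUM159 and between 11492 and 15287 in HCC1806. CDH1, E-cadherin, was at 1.1 and 2.8 with JQ1, against 30.5 and 33.2 without JQ1, and between 14154 and 27121 in HCC1806.

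Promoters of a few genes that the results turn on are shown to give the sequence context of strong changes in each direction. They run from 250 bases before to 50 after the RefSeq gene start on GRCh38.p14 and are read 5′ to 3′ on the gene's strand. Capitals mark matches on either strand. The TATA box was searched for under the letters given by TATAAA. The CCAAT box was searched for under the letters of its name. For the GC box the letters searched were GGGCGG. For the E-box, the site of MYC and related factors, the letters searched were CACGTG. For AP-1, the dimer of FOS and JUN proteins, the letters searched were TGANTCA. Any base was taken at N, which is a loose form of the site, and the match in PDGFRA reads TGAATCA. For the ETS family of factors the letters searched were CCGGAAG. SULT1B1 and PDGFRA are genes with low values under JQ1, and HEXIM1 and KLF2 genes with high values under JQ1. The windows are chr4:69760571-69760870 on the minus strand for SULT1B1, and on the plus strand chr4:54229043-54229342 for PDGFRA, chr17:45148225-45148524 for HEXIM1 and chr19:16324576-16324875 for KLF2. The GENCODE span given for SULT1B1 with its values is longer at the 5′ end, since it takes in a transcript that starts upstream of the RefSeq start. The spans given for PDGFRA and KLF2 also start upstream of the RefSeq start, inside their windows. The match marked in PDGFRA thus lies within its GENCODE span.
SULT1B1: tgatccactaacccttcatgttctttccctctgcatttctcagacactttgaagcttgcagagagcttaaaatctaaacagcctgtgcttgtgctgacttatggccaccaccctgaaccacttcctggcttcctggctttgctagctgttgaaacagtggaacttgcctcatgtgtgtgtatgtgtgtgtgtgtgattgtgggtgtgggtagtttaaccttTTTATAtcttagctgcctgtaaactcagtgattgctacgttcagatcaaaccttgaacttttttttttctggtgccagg
PDGFRA: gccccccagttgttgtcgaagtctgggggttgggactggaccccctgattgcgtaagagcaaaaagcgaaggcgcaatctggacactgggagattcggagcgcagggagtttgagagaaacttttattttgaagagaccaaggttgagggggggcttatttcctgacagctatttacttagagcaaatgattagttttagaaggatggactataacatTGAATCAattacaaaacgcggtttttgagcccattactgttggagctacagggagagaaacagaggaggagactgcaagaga
HEXIM1: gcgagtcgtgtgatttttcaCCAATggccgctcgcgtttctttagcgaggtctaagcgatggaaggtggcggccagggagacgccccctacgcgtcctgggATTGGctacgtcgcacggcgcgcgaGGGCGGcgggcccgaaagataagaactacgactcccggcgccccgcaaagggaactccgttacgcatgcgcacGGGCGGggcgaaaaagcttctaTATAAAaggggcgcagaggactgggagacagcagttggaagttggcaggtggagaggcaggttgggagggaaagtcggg
KLF2: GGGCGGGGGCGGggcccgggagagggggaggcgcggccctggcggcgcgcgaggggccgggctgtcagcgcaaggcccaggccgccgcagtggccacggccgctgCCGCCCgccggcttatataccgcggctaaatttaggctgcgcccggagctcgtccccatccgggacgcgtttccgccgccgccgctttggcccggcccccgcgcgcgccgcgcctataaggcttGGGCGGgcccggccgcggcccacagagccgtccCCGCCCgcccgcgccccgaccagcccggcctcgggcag

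The windows of HEXIM1 and KLF2 held 2 and 5 GC boxes, and those of SULT1B1 and PDGFRA held none. Such a window was found for 186 of the 260 genes that were at least 2-fold higher with JQ1 in both pairs, for 592 of the 810 that were at least 2-fold lower, and for 11022 of all genes tested. A GC box was present in 83.9% of the windows of the higher genes, in 53.4% of those of the lower genes and in 69.1% of all. The median GC content was 70.7% in the higher genes, 60.7% in the lower genes and 65.0% in all, and a window with several GC boxes counted once. A match to the loose AP-1 letters was present in 3.2%, 7.9% and 4.8% of the windows of the higher genes, lower genes and all genes. An ETS site was present in 7.5%, 9.8% and 18.3% of them, a CCAAT box in 38.2%, 30.9% and 36.7%, a TATA box in 8.6%, 9.0% and 5.8%, and an E-box in 7.0%, 9.1% and 10.0%. These shares describe letters in a window and were not tested.

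With JQ1, more genes of SUM159 fell than rose on the deposited scale, and the largest falls were larger than the largest rises. Of 14232 genes tested, 4068 fell, which is 28.6%, and 2149 rose, which is 15.1%, at an adjusted p under 0.05 (limma on log2(value + 1), Benjamini-Hochberg over all genes). Of these, 1597 fell and 513 rose by 2-fold or more. Each count for a gene list below is to be read beside the shares of 28.6% and 15.1%. A count near them says little about the list. The median change over all genes was −0.13 on the log2 scale, so the balance depends on scaling. Falls made up 65.4% of the calls on the deposited scale, 52.9% after trimmed-mean (TMM) rescaling, with a median of −0.03, and 47.9% after quantile normalization, with a median of 0.01. The test draws on all 12 libraries, and its error is how far each line departs from adding the JQ1 and GSK2801 effects, so its p-values measure the spread between neither separate cultures nor lines. When the 4 SUM159 libraries were fitted alone, limma called 0 genes higher and 0 lower, with a smallest adjusted p of 0.0503 and 6541 genes at an unadjusted p under 0.05. Without any 1 SUM159 library, 762 to 1064 genes were called higher and 1511 to 2092 lower. Here and below, such a fit takes the JQ1 change from the 1 pair left whole. Its error comes from the other lines alone, so it shows no spread within SUM159. RNA came from whole cultures, in which fewer cells of a kind and less RNA per cell cannot be told apart.

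The 2 pairs gave much the same picture. Among 11623 genes with a mean of at least 50 over the 4 libraries, 260 (2.24%) were at least 2-fold higher in both pairs and 810 (6.97%) at least 2-fold lower in both. Only 4 genes moved 2-fold in opposite ways. Of the genes 2-fold higher in the pair without GSK2801, 72.4% were also higher in the pair with it, and the reverse share was 60.9%. For lower genes these shares were 80.8% and 65.0%. Among the genes moved in both pairs, the pair with GSK2801 had the larger change for 158 of the 260 higher genes and for 491 of the 810 lower genes. At the edge of the higher group, the smaller of a gene's 2 log2 ratios was 1.002 just inside and 0.999 just outside. The groups contained 40 genes at least 4-fold higher and 226 at least 4-fold lower in both pairs. The tested effect is the mean of the same 2 ratios by which these genes were picked. High counts of genes passing the test therefore follow largely from the choice. Of the 260, 258 passed the test, 204 of them also without any 1 SUM159 library. Of the 810, 790 passed, and 497 also did so without any 1 library.

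**Figure D1:**
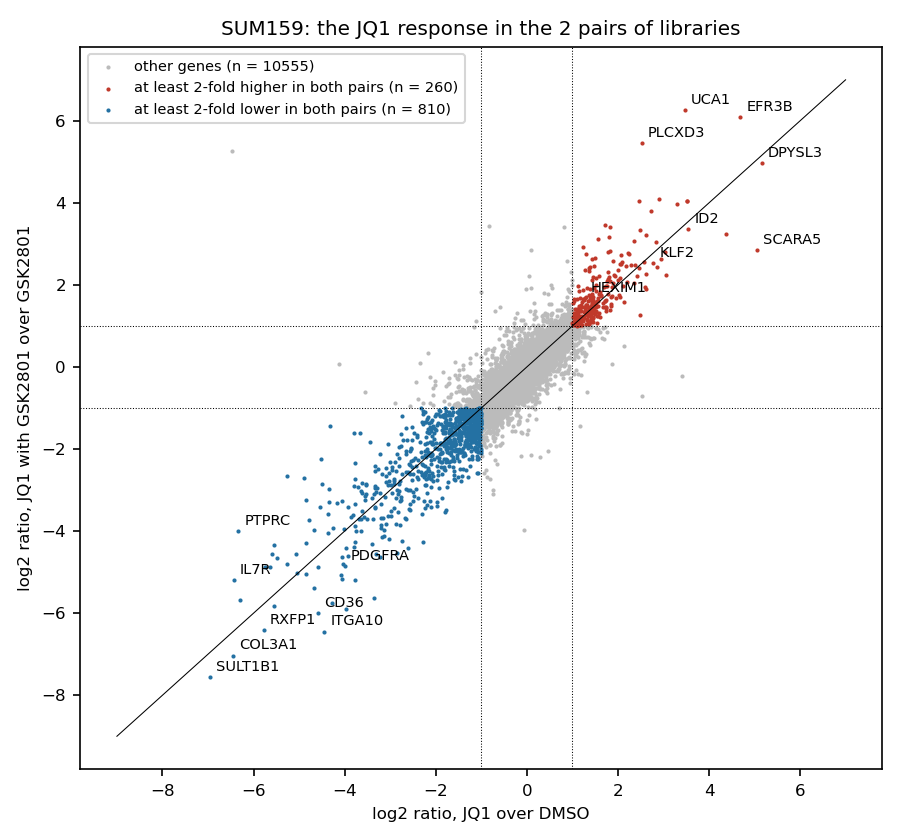
Log2 ratio of JQ1 with GSK2801 over GSK2801 (vertical) against that of JQ1 over DMSO (horizontal) in SUM159, on log2(value + 1), for 11623 genes, each a point. Red points are the 260 genes at least 2-fold higher in both pairs and blue points the 810 at least 2-fold lower; dotted lines mark 2-fold and the diagonal marks equal ratios.

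Among genes of mean at least 50, moved in both pairs, the 12 largest rises were of mixed function, 5 of them in histone genes. EFR3B, a scaffold that anchors a phosphatidylinositol kinase at the plasma membrane, reached 476 and 1204 in the libraries with JQ1, against 17.6 and 16.6 without. Its log2 change was 5.39 ± 0.46 (standard error), with an adjusted p of 3e-04 by limma. DPYSL3, a protein that guides cytoskeletal remodelling in neurons, was at 1166 and 2319 with JQ1, against 31.6 and 72.6 without. The groups did not overlap for either gene, and both were higher in the library that combined the agents. UCA1, a long non-coding RNA first described in bladder cancer, was at 251 and 411 with JQ1, against 21.8 and 4.4 without. ID2, an inhibitor of basic helix-loop-helix factors, was at 682 and 1701 with JQ1, against 57.4 and 164 without. YPEL1 was at 228 and 334 with JQ1, against 22.5 and 20.3 without.

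SCARA5, a scavenger receptor that binds ferritin, stood at 227 and 504 with JQ1, against 5.9 and 69.1 without. Its 2 libraries without JQ1 differed more than those with it, so the pair ratios were 5.05 without GSK2801 and 2.85 with it on the log2 scale. PLCXD3, which contains a phospholipase domain, was at 72.2 and 541 with JQ1, against 11.7 and 11.4 without. The JQ1 library with GSK2801 decided its size, and without a library of that pair its adjusted p was 0.122 to 0.124 by limma. Histone genes filled the other places among the 12 largest rises. HIST1H4H was at 52.0 and 147 with JQ1, against 7.0 and 9.6 without. HIST2H4A and HIST2H4B are near-identical copies, as are HIST2H3A and HIST2H3C, whose values are the same, so reads may be split between copies and the 4 values are uncertain one by one. Both H4 copies lay between 1078 and 1990 with JQ1, against 50.8 to 209 without.

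Among the largest falls, SULT1B1 and RXFP1 were left with values worth a few reads with JQ1, while COL3A1 kept a low level. SULT1B1, a cytosolic sulfotransferase (chromosome 4, 69721162 to 69787961 on hg38), was at 3.2 and 1.9 with JQ1, against 521 and 542 without. That is 153-fold lower on the log2(value + 1) scale, with a log2 change of −7.26 ± 0.38 and an adjusted p of 9e-05 by limma. COL3A1, the chain of type III collagen (chromosome 2, 188974320 to 189012746), was at 43.5 and 34.0 with JQ1, against 3890 and 4596 without, or 107-fold lower. RXFP1, the receptor of relaxin, was at 2.1 and 0.9 with JQ1, against 170 and 165 without. In each of these genes both libraries with JQ1 lay far below both without it, and the DMSO and GSK2801 libraries were close together.

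IL7R, the receptor chain for interleukin 7, was at 10.6 and 16.1 with JQ1, against 1004 and 621 without. SOST, a secreted inhibitor of Wnt signalling, was at 4.2 and 3.8 with JQ1, against 244 and 270 without. ITGA10, a collagen-binding integrin, was at 208 and 23.6 with JQ1, against 4566 and 2148 without. NUPR1, a stress-induced transcriptional regulator, was at 9.6 and 14.2 with JQ1, against 525 and 441 without. CD36, a receptor that takes up fatty acids, was at 9.6 and 16.1 with JQ1, against 252 and 1089 without, and the library with GSK2801 alone was the high one. On the log2 scale PTCHD4 fell by 5.99, CRISP3 fell by 5.31 and PTPN22, a phosphatase known from lymphocytes, fell by 5.08. PTPRC, the leukocyte protein CD45, was at 4.2 and 2.8 with JQ1, against 422 and 60.4 without. Its fall rests on the DMSO library, and without a library of that pair its log2 change was −4.00 with an adjusted p of 0.0533 to 0.0537 by limma.

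**Figure D2:**
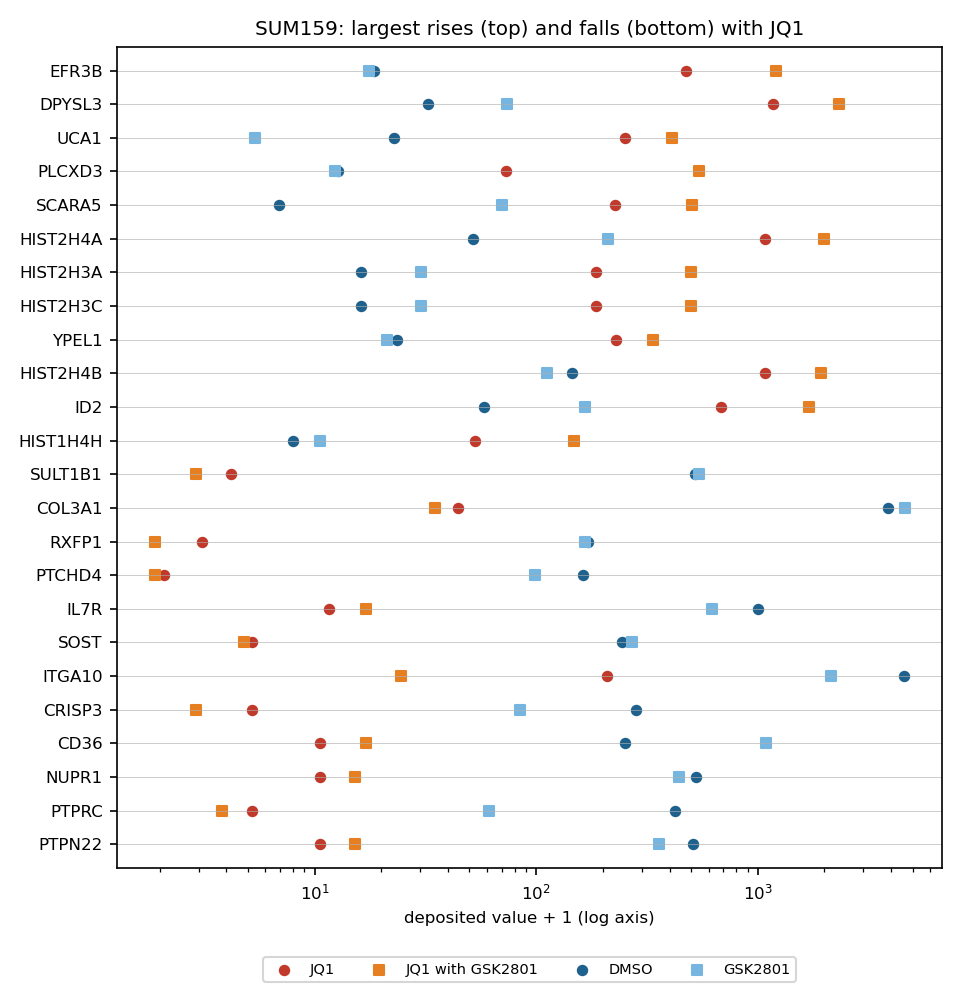
Deposited value plus 1 (log axis) in the 4 SUM159 libraries for the 12 largest rises (top) and 12 largest falls (bottom); red and orange are the libraries with JQ1, dark and light blue those without, and squares are libraries with GSK2801. SULT1B1 lay at 3.2 and 1.9 with JQ1, against 521 and 542 without. They are the largest among genes that passed and moved at least 2-fold the same way in both pairs with a mean of at least 50.

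Among the direct targets and partners of JQ1, 4 of 20 tested BET proteins and P-TEFb regulators rose and 5 fell, or 9 and 2 after TMM rescaling, and 3 and 0 to 1 without any 1 library. BRD2 was at 19240 and 28911 with JQ1, against 8576 and 11224 without, and HEXIM1 rose by 1.48 ± 0.15 on the log2 scale. AFF1, a scaffold of the super elongation complex, was at 2035 and 2365 with JQ1, against 1238 and 1332 without. Of 15 genes commonly used as markers of BET inhibition, 3 rose and 6 fell, 1 to 3 and 3 to 4 without any 1 library. CD180, a receptor-like protein of B cells, was at 14.9 and 4.7 with JQ1, against 96.1 and 122 without. MYC, the oncogene that BET inhibitors often lower in blood cancers, did not pass, with 8028 and 7079 with JQ1, against 7482 and 8959 without.

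Collagen and matrix genes, which build the fibrous scaffold around cells, fell widely in SUM159. Of 35 tested, 20 fell and 2 rose, with a median log2 change of −0.77 beside −0.13 over all genes, and 13 to 16 fell without any 1 SUM159 library. DCN, the proteoglycan decorin, was at 12.7 and 13.2 with JQ1, against 183 and 228 without. LOX, which cross-links collagen, was at 128 and 75.2 with JQ1, against 776 and 836 without. PCOLCE, which enhances cleavage of procollagen, was at 275 and 199 with JQ1, against 1902 and 1911 without. LTBP2, a protein of elastic fibres, was at 75.6 and 48.2 with JQ1, against 700 and 494 without. In these 4 genes both libraries with JQ1 lay well below both without it.

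Other collagen chains fell by less or did not pass. COL1A1, a chain of type I collagen, was at 19899 and 10269 with JQ1, against 46871 and 37932 without. COL6A3, of type VI collagen, was at 18200 and 9384 with JQ1, against 44008 and 44574 without. In both genes the library with both agents was the lowest. COL5A1, with a log2 change of −0.29, and COL6A1, with 0.18, did not pass. Not every matrix gene fell. FBN1, the microfibril protein fibrillin, was at 660 and 798 with JQ1, against 329 and 381 without. FN1, fibronectin, did not pass, with 152706 and 141772 with JQ1, against 106987 and 117852 without.

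**Figure D3:**
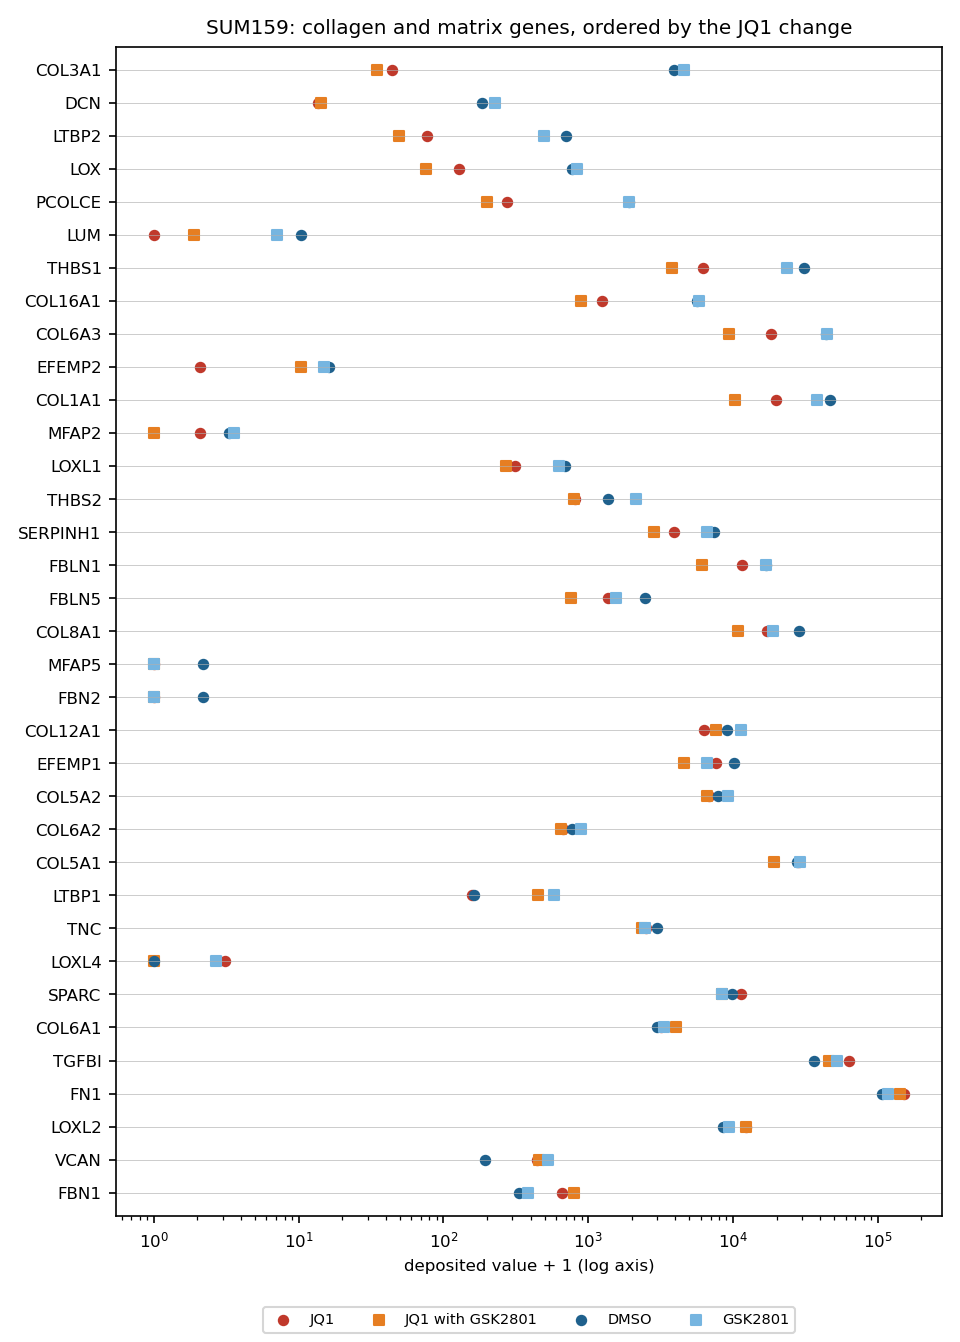
Deposited value plus 1 (log axis) in the 4 SUM159 libraries for the 35 tested collagen and matrix genes, ordered by the change with JQ1; colours and shapes as for the largest rises and falls. COL3A1, with 43.5 and 34.0 under JQ1 against 3890 and 4596 without, is at the top, and FBN1, with 660 and 798 under JQ1 against 329 and 381 without, at the bottom.

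Among 21 basement membrane genes, 3 rose and 7 fell, against 4 falls after TMM rescaling and 2 to 5 without any 1 library. LAMB3, a chain of the laminin of epithelial attachment, was at 660 and 859 with JQ1, against 1439 and 1690 without, whereas LAMB2 was at 9838 and 11687 with JQ1, against 4607 and 5644 without. Of 29 matrix proteases and inhibitors, 6 rose and 9 fell (4 to 5 fell without any 1 library). PLAT, tissue plasminogen activator, was at 17766 and 20974 with JQ1, against 6205 and 8178 without. SERPINE2, a secreted inhibitor of serine proteases including PLAT, was at 177 and 454 with JQ1, against 41.0 and 76.1 without. MMP14, a membrane-bound collagenase, was at 474 and 368 with JQ1, against 1157 and 1080 without. Of 17 integrins, 1 rose and 7 fell, and 2 to 4 fell without any 1 library. ITGB2, an integrin chain known from leukocytes, was at 6.4 and 3.8 with JQ1, against 59.2 and 37.2 without.

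Scavenger receptors moved in both directions, with 1 rise, SCARA5, and 9 falls among 15 tested (4 to 6 falls without any 1 library). SSC5D, a secreted scavenger protein, was at 3.8 and 12.3 with JQ1, against 49.2 and 48.1 without. Of 6 cytosolic sulfotransferases, which add sulphate to hormones and drugs, 4 fell and none rose, and 3 fell without any 1 library. Beside SULT1B1 these were SULT1E1, which inactivates oestrogen, SULT1A1 and SULT1A3. SULT1E1 was at 152 and 52.0 with JQ1, against 2099 and 1940 without. SULT1A1 was at 5.1 and 3.0 with JQ1, against 27.3 and 30.4 without. SULT1A3 has a near-identical copy, so its value is uncertain, and without 1 library it did not pass.

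Iron storage genes rose beside the ferritin receptor SCARA5, and 6 of 12 iron-handling genes rose while 3 fell, or 3 to 4 rises and 1 to 2 falls without any 1 library. FTH1, the heavy chain of ferritin, was at 282633 and 427834 with JQ1, against 72996 and 132809 without. FTL, the light chain, was at 89569 and 146807 with JQ1, against 35172 and 48354 without, and its adjusted p was 0.0558 to 0.0566 by limma without a library of the pair with GSK2801. HMOX1, heme oxygenase, which frees iron from heme, was at 8172 and 14900 with JQ1, against 2486 and 4897 without. Each of these 3 genes was highest with both agents and lowest in DMSO. SLC11A2, an iron importer, was at 1194 and 937 with JQ1, against 2348 and 2576 without. TFRC, the transferrin receptor, did not pass, with 22020 and 34402 with JQ1, against 16953 and 26355 without.

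Of 31 receptor tyrosine kinases 13 fell and 4 rose, or 6 to 8 falls and 3 to 4 rises without any 1 library. PDGFRA, the alpha receptor for platelet-derived growth factor (chromosome 4, 54229097 to 54298247), was at 412 and 165 with JQ1, against 6604 and 4788 without, which is 21.5-fold lower. PDGFRB was at 294 and 307 with JQ1, against 1385 and 1637 without. TYRO3, a receptor of the TAM family, was at 943 and 821 with JQ1, against 2412 and 3019 without. FGFR1 and FGFR3, receptors for fibroblast growth factors, were among the rises. FGFR1 was at 3795 and 4794 with JQ1, against 1794 and 2210 without. FGFR3 was at 80.7 and 365 with JQ1, against 34.0 and 47.2 without. Among 25 mesenchymal factors and markers 9 fell and none rose, with 4 to 5 falls without any 1 library. PRRX1, a homeobox factor of mesenchyme, was at 73.3 and 47.2 with JQ1, against 318 and 206 without. TCF4 was at 162 and 116 with JQ1, against 556 and 448 without. ZEB1 and VIM did not pass.

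Genes of the TGF-beta, BMP and Wnt pathways went both ways. The Wnt counts lay near the shares over all genes, 15.1% higher and 28.6% lower. Of 33 TGF-beta and BMP genes, 8 rose and 5 fell, or 4 to 6 rises and 2 to 3 falls without any 1 library. The ligand TGFB2 was at 388 and 303 with JQ1, against 1469 and 1096 without, and the ligand TGFB1 at 10520 and 14274 with JQ1, against 6310 and 7348 without. ID1, a BMP target, was at 5018 and 7808 with JQ1, against 1968 and 3299 without. Of 35 Wnt genes 6 rose and 10 fell, or 1 to 5 rises and 4 to 5 falls without any 1 library. NOTUM, a secreted enzyme that inactivates Wnt proteins, was at 5.3 and 2.8 with JQ1, against 97.3 and 66.5 without. WNT9A, a ligand, was at 98.8 and 146 with JQ1, against 15.2 and 29.7 without. FZD2, a receptor, was at 135 and 113 with JQ1, against 323 and 346 without.

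Of 18 YAP and TEAD genes, which include the factors themselves beside their targets, 4 rose and 4 fell, and fewer passed without any 1 library. The falls were TGFB2 and the factors YAP1, TEAD2 and TEAD3. AMOTL1, a junction protein, was at 1500 and 1473 with JQ1, against 892 and 937 without. Of 11 AP-1 factors 5 rose and 2 fell, 3 and 1 to 2 without any 1 library. JUND was at 10402 and 11090 with JQ1, against 3503 and 4708 without, and BATF3 at 10.6 and 10.4 with JQ1, against 57.4 and 43.7 without. FOSL1 did not pass, with 837 and 992 with JQ1, against 952 and 804 without. Of 23 ERK feedback and output genes 3 rose and 7 fell, 1 and 2 to 4 without any 1 library. SPRY1, a feedback inhibitor, was at 25.5 and 31.2 with JQ1, against 185 and 149 without, and ETV4, an ETS factor, at 428 and 577 with JQ1, against 1479 and 1272 without.

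Interferon response genes and inflammatory genes fell widely, while IRF7, a regulator of the interferon response, rose. Of 38 type I interferon response genes 27 fell and 3 rose, with a median log2 change of −0.91. Without any 1 library 16 to 17 fell, and after quantile normalization 17 fell. IFI44L was at 29.7 and 10.4 with JQ1, against 784 and 479 without. IFIH1, a sensor of double-stranded RNA, was at 28.7 and 41.6 with JQ1, against 251 and 235 without. IRF7, a transcription factor of the response, was at 872 and 1194 with JQ1, against 157 and 223 without. Of 27 NF-kB factors and inflammatory secreted genes 13 fell and none rose, and 9 to 11 fell without any 1 library. ICAM1, an adhesion protein, was at 162 and 270 with JQ1, against 774 and 682 without. CSF3, a growth factor for neutrophils, was at 0.0 and 0.9 with JQ1, against 41.0 and 19.2 without.

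Of 18 antigen presentation genes 10 fell and 2 rose, but 3 to 5 fell and none rose without any 1 library. ERAP2, a peptide-trimming protease, was at 822 and 635 with JQ1, against 3692 and 3474 without, and the immunoproteasome subunit PSMB8 at 484 and 431 with JQ1, against 1553 and 1511 without. TAPBP, which loads peptides, was at 6906 and 6321 with JQ1, against 13506 and 15445 without.

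Few mitosis genes passed in SUM159, where 15.1% of all genes rose and 28.6% fell. Of 40 mitosis genes 1 rose, 2 fell and 37 did not pass, and none passed without any 1 library. MKI67, a marker of cycling cells, did not pass, with 11278 and 13064 with JQ1, against 19668 and 15738 without. Of 40 DNA replication genes 6 rose and 5 fell, with a median log2 change of 0.02, and 0 to 4 rose and 0 to 1 fell without any 1 library. Of 15 G1 cyclins and kinases 4 rose and 5 fell, none and 2 without any 1 library. CDK6, a G1 kinase, was at 2087 and 1280 with JQ1, against 3526 and 2870 without. Of 22 cell cycle inhibitors and p53 targets 6 rose and 5 fell, 3 and 1 to 2 without any 1 library. CDKN1A, the inhibitor p21, was at 5903 and 6053 with JQ1, against 2816 and 2651 without, and CDKN2D, p19, at 290 and 393 with JQ1, against 140 and 147 without.

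Histone transcripts rose as a group. Of 24 polyadenylated and linker histone genes 18 rose and none fell, with a median log2 change of 1.32, and 6 to 13 rose without any 1 library. The labels give polyadenylated RNA, and most histone messages end without a poly(A) tail, so a level here follows only transcripts that were captured. Ribosome biogenesis genes fell modestly. Of 55, 30 fell and 2 rose, with a median of −0.30, against 19 falls and 4 rises after TMM rescaling, and 10 fell without any 1 library. FBL, the methyltransferase fibrillarin, was at 2412 and 2245 with JQ1, against 4319 and 4205 without, and GAR1, of the pseudouridylation complex, at 536 and 359 with JQ1, against 953 and 778 without.

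Stress and metabolic genes were mixed. Of 31 ATF4, amino acid and unfolded protein genes 18 fell and 2 rose, and 8 to 11 fell without any 1 library. PHGDH, which begins serine synthesis, was at 396 and 556 with JQ1, against 964 and 1326 without, and SLC7A1, an arginine transporter, at 2882 and 2485 with JQ1, against 5886 and 5902 without. Of 42 autophagy and lysosome genes 14 rose and 6 fell, 6 to 8 and 0 to 5 without any 1 library. MAP1LC3B, of the autophagosome membrane, was at 8263 and 9536 with JQ1, against 4262 and 4546 without. GRN, progranulin, was at 4638 and 6230 with JQ1, against 2537 and 2995 without. Of 26 cholesterol synthesis genes 4 rose and 11 fell (4 to 5 falls without any 1 library).

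Of 33 hypoxia and glycolysis genes 9 rose and 9 fell, 2 to 3 and 4 to 5 without any 1 library. CA9, a carbonic anhydrase induced by hypoxia, was at 6.4 and 6.4 with JQ1, against 211 and 243 without, while NDRG1, another hypoxia target, was at 2833 and 3662 with JQ1, against 852 and 1360 without. Of 26 apoptosis regulators 6 rose and 5 fell, 3 and 2 to 3 without any 1 library. BCL2L11, the killer protein BIM, was at 516 and 751 with JQ1, against 169 and 212 without, and BIRC3, an inhibitor of apoptosis, at 583 and 429 with JQ1, against 1549 and 922 without. Of 21 neural adhesion and cytoskeleton genes 9 rose and 4 fell, 5 to 7 and 3 to 4 without any 1 library. L1CAM, a neural adhesion protein, was at 34.0 and 69.9 with JQ1, against 1.2 and 7.0 without. TUBB3, a tubulin of neurons, was at 13555 and 13640 with JQ1, against 3324 and 4036 without. Of 22 potassium and calcium channel genes 1 rose and 7 fell, 5 to 6 falls without any 1 library. KCNQ3, a neuronal potassium channel, was at 40.4 and 87.9 with JQ1, against 511 and 719 without.

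Markers of other cell types were examined because a culture could hold other cells. Of 10 fibroblast and adipocyte markers 9 fell and none rose, and 6 to 7 fell without any 1 library, with summed values of 21493 and 13209 with JQ1, against 60489 and 51772 without. COL3A1, PDGFRA, DCN and PDGFRB are among these 10, and their part in the matrix result was not tested. Of 6 blood and endothelial markers 3 fell, namely PTPRC, CD14 and PECAM1, and 0 to 2 passed without any 1 library. Of 39 epithelial and keratinocyte genes 6 rose and 11 fell, and 9 to 10 fell without any 1 library. TP63, a factor of basal epithelium, was at 388 and 162 with JQ1, against 1830 and 1011 without. Of 15 luminal breast genes 2 rose and 6 fell, 0 to 2 and 4 to 6 without any 1 library. ESR1, the oestrogen receptor, was listed at 0 in both libraries with JQ1, against 12.9 and 8.7 without.

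**Figure D4:**
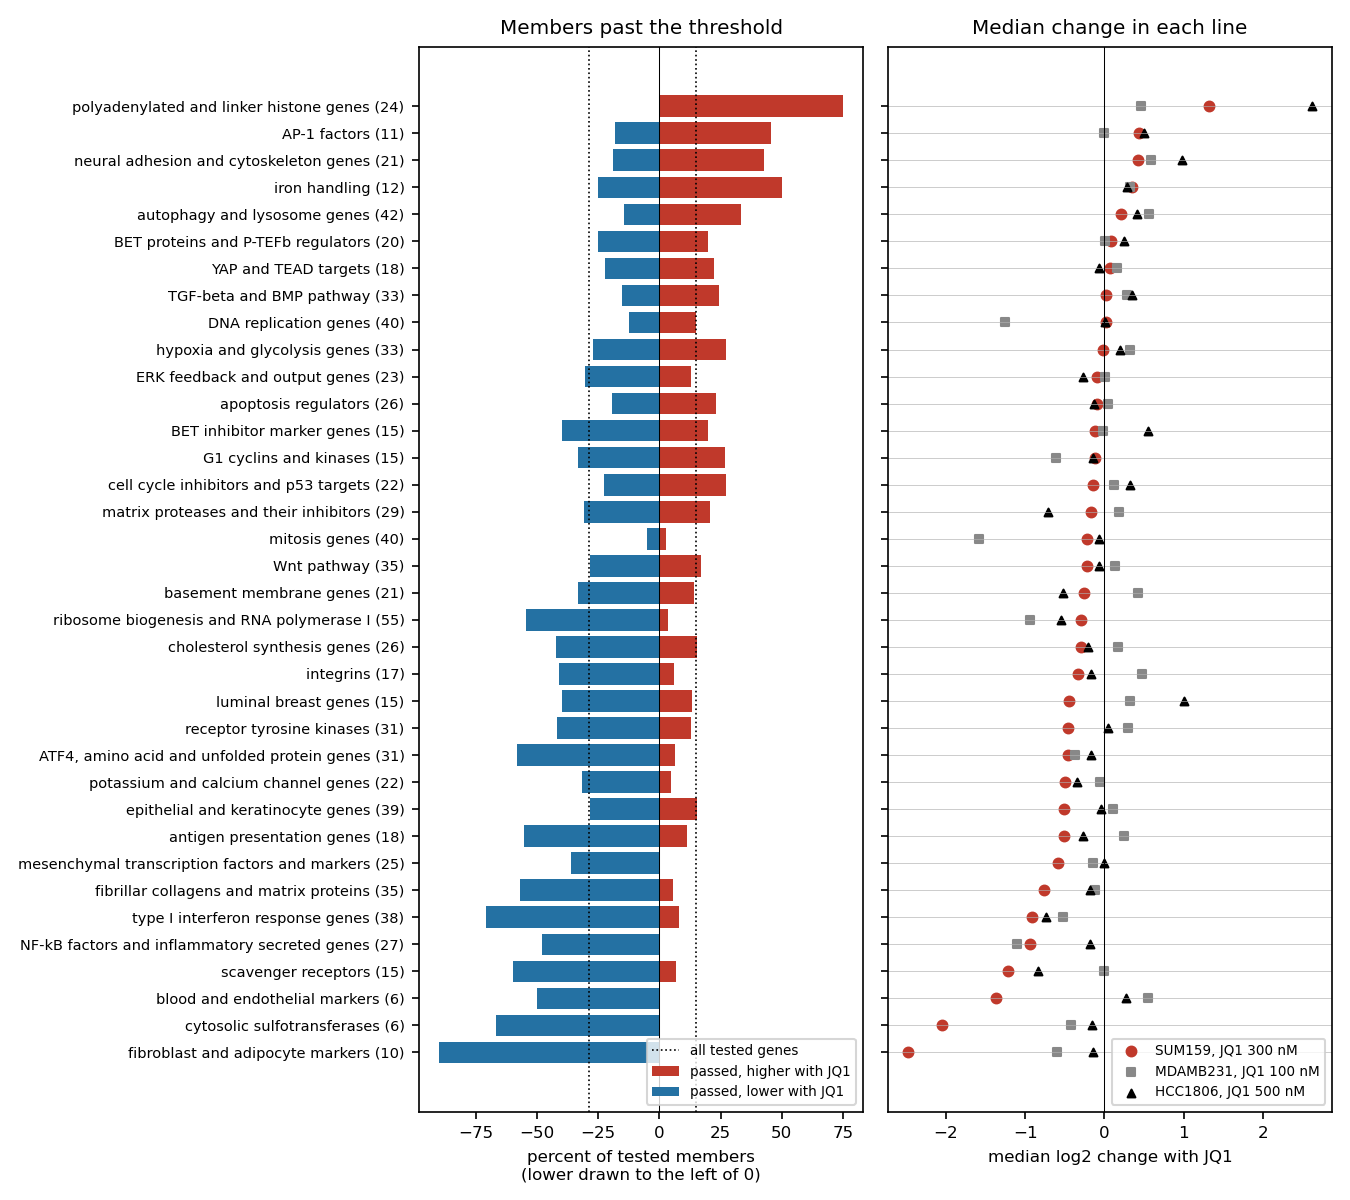
Left, percent of tested members of each list that rose (red, to the right) or fell (blue, to the left) with JQ1 in SUM159, with dotted lines at 15.1% and 28.6%, the shares over all tested genes, and the number tested in brackets. Right, median log2 change of each list in SUM159, MDAMB231 and HCC1806; fibroblast and adipocyte markers have the lowest SUM159 median, and histone genes the highest.

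The difference between the JQ1 response of SUM159 and the mean response of the other lines was tested in the same fit. It passed in the positive direction for 1219 genes, or 8.57%, and in the negative direction for 2352, or 16.5%. Without any 1 SUM159 library 118 to 324 and 472 to 858 genes passed. Of the 260 genes higher in both pairs, the difference had the same sign and passed for 66, and of the 810 lower genes for 402. It passed with the opposite sign, that is, a smaller change in SUM159 than the mean of the other lines, for 32 of the 260 and 18 of the 810. Of the 260 genes, 105 were also at least 2-fold higher in both pairs of both other lines, and of the 810 lower genes 118 were also lower in them. With each line's own minimum of 50, the lists of SUM159 and MDAMB231 shared 138 higher genes, 53.1% of the first list and 18.0% of the second, and 170 lower genes, 21.0% and 23.9%. SUM159 and HCC1806 shared 146 higher genes, 56.2% and 21.3%, and 228 lower genes, 28.1% and 27.5%. By this rule, 765 of the 14232 tested genes were higher and 711 lower in MDAMB231, and 684 and 829 in HCC1806. Whether the overlaps exceed what such counts would give was not tested.

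Genes whose fall stood furthest from the other lines were mostly near 0 in those lines with or without JQ1, so that a fall there could not be seen. The values of SULT1B1 in the other lines were at most 4.5, those of COL3A1 at most 2.4 and those of PDGFRA at most 14.3. RXFP1 was listed at 0 in all 8 libraries of the other lines, and PTCHD4 and CRISP3 did not exceed 1.1 there. FSIP2, of the sperm fibrous sheath, was at 6.4 and 4.8 with JQ1, against 243 and 186 without in SUM159. In MDAMB231 it was at 246 and 175 with JQ1, against 254 and 271 without. In HCC1806 it was at 31.1 and 45.8 with JQ1, against 11.7 and 10.5 without, and the difference of SUM159 from the other lines was −5.71 ± 0.35 with an adjusted p of 5.2e-04 by limma. Of the 402 lower genes, 228 had a mean of at least 50 in both other lines. Among these, chosen after their values were seen, are BHLHE41, F2RL1 and HPGD. BHLHE41, a clock-related repressor, was at 16.1 or less with JQ1, against 280 and 180 without in SUM159. In the other lines it lay between 125 and 218 with JQ1, against 100 to 179 without. F2RL1, a receptor activated by proteases, was at 137 and 95.4 with JQ1, against 1076 and 805 without in SUM159. In MDAMB231 it was at 6781 and 5951 with JQ1, against 4240 and 4938 without. In HCC1806 it was lower with JQ1 as in SUM159 but by less, at 2744 and 2836 with JQ1, against 4472 and 4821 without. HPGD, which degrades prostaglandins, was at 110 and 124 with JQ1, against 411 and 458 without in SUM159. In MDAMB231 it was at 225 and 292 with JQ1, against 33.9 and 61.7 without, and in HCC1806 at 61.5 and 150.3 with JQ1, against 27.8 and 60.9 without.

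On the rising side, KLF2 and SERPINE2 were expressed in every line. KLF2, a transcription factor known from endothelial cells and resting T cells (chromosome 19, 16324817 to 16327874), was at 439 and 479 with JQ1, against 63.3 and 82.2 without in SUM159. In MDAMB231 it was at 585 and 912 with JQ1, against 456 and 457 without. In HCC1806 it was at 202 and 165 with JQ1, against 554 and 372 without, and the difference of SUM159 from the mean of both was 2.97 ± 0.23 with an adjusted p of 9.6e-04 by limma. SERPINE2 was between 873 and 915 with JQ1, against 754 and 821 without in MDAMB231. In HCC1806 it was between 6288 and 10025 with JQ1, against 7792 and 11086 without. SUM159 thus started from the lowest level of the 3 lines for both genes. UCA1 rose in SUM159 to a level below that of the other lines, which lay between 3432 and 13526 with JQ1, against 871 to 7685 without. SCARA5 was at most 1.2 in the other lines, and its difference from them had an adjusted p of 0.066 to 0.0665 by limma without a library of the pair without GSK2801. AREG, a ligand of the EGF receptor, was at 222 and 308 with JQ1, against 85.5 and 56.9 without in SUM159, and between 1706 and 5478 with JQ1, against 2311 to 8905 without in the other lines, and its difference had an adjusted p of 0.0572 to 0.0574 by limma without a library of the pair with GSK2801. RASGRP1, an activator of RAS, and IGFL2-AS1, an RNA antisense to IGFL2, also differed. Whether the authors counted reads by strand is not given in the sources used here, so the value of IGFL2-AS1 may hold reads of its partner.

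**Figure D5:**
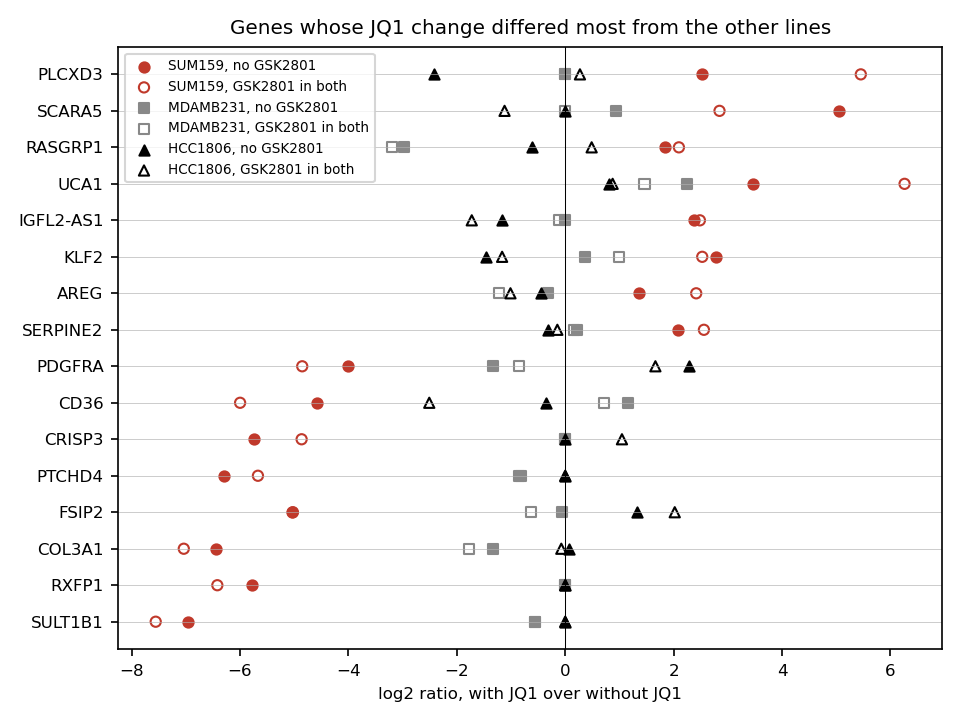
Log2 ratio of the library with JQ1 over the library without it, on log2(value + 1), in both pairs of SUM159 (red), MDAMB231 (grey) and HCC1806 (black), for the 8 largest positive and 8 largest negative differences between SUM159 and the mean of the other lines; filled marks are pairs without GSK2801 and open marks pairs with it. SUM159 marks for KLF2 lie at 2.77 and 2.53, and those for SULT1B1 at −6.96 and −7.55. The differences were ranked only among genes moved in both SUM159 pairs.

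Gene groups differed between the lines as well. The difference from the other lines was positive and passed for 24 of 40 DNA replication genes, against 8.57% of all genes, and negative for none. The median log2 change of this list was 0.02 in SUM159, against −1.25 in MDAMB231 and 0.00 in HCC1806, and 0 to 6 genes passed without any 1 SUM159 library. CDC6, which licenses replication origins, was at 2322 and 2811 with JQ1, against 1758 and 1561 without in SUM159. In MDAMB231 it was at 1968 and 1370 with JQ1, against 4475 and 4063 without. In HCC1806 it was at 2476 and 2651 with JQ1, against 2622 and 2318 without. Its difference from the mean of the other lines had an adjusted p of 0.0569 by limma without either library of the pair with GSK2801. For mitosis genes the medians were −0.22 in SUM159, against −1.59 in MDAMB231 and −0.06 in HCC1806, and 5 of 40 differences passed, all positive, with none left without any 1 SUM159 library. For ribosome biogenesis genes 29 of 55 differences were positive, that is, a smaller fall in SUM159, and 3 to 7 passed without any 1 library. BRIX1, a ribosome assembly factor, was at 1538 and 1565 with JQ1, against 2762 and 2572 without in SUM159. In MDAMB231 it was at 1174 and 1070 with JQ1, against 3579 and 3508 without, and in HCC1806 at 1406 and 1284 with JQ1, against 3910 and 3922 without. In contrast, 17 of 35 collagen and matrix genes differed negatively, against 16.5% of all genes, and fewer did so without any 1 library. The 17 include COL3A1, which was near 0 in the other lines, so that a fall there could not be seen. Others, such as LTBP2 and COL6A3, had a mean of at least 50 in both other lines. MYC was at 2389 and 2600 with JQ1, against 7428 and 8906 without in HCC1806. Its values in MDAMB231 were 6289 and 8432 with JQ1, against 6825 and 7916 without. The SUM159 change differed from that of HCC1806 by 1.59 (adjusted p of 0.00127 by limma) and from that of MDAMB231 by −0.11 (adjusted p of 0.653 by limma). It differed from the mean of the other lines by 0.74 with an adjusted p of 0.0107 by limma. Without either library of the pair without GSK2801 that adjusted p was 0.083 to 0.0832 by limma.

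The 5 genes whose pair ratios differed most, with opposite signs, are given as a description. Among these 5, DIP2C alone moved at least 2-fold in each direction, and the others moved mainly in 1 pair. DIP2C was at 2.5 with JQ1 alone and 232 with both agents, against 306 in DMSO and 5.0 in GSK2801 alone. S100P, a calcium-binding protein, was at 7.4 and 312 with JQ1, against 14.1 and 28.0 without, so that the library with both agents stood apart. CHAC1, which degrades glutathione, was at 6.4 and 35.9 with JQ1, against 128 and 34.1 without, where DMSO was the high library. CDRT4 was at 93.7 and 81.7 with JQ1, against 8.0 and 94.5 without, and INO80B-WBP1, a readthrough symbol, at 272 and 99.8 with JQ1, against 46.6 and 162 without. With 1 library per treatment, a single odd library and a different response under GSK2801 cannot be told apart.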

How the data were processed

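Polyadenylated RNA was sequenced from 3 breast cancer lines after 72 h with 4 treatments, 1 library each. Labels differ on the library kit (KAPA Stranded mRNAseq or Illumina TruSeq RNA v2). Per the submitters' processing notes, the authors used STAR 2.4, Salmon 0.60 and hg38; annotation and scaling are not given in the sources used here. The deposited values were taken as signal: estimated counts divided by 1 factor per library, with an upper quartile of values above 0 of 1663.93 in every library. Scaling of this kind makes all values relative to a library's upper quartile. From 28539 entries, 27 symbols turned into dates (0.199% to 0.218% of the SUM159 signal) were dropped.

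Genes with a mean of at least 10 over 12 libraries (14232) were fitted with limma 3.58.1 (R 4.3.3) on log2(value + 1) with a variance trend. The model held line, and a JQ1 and a GSK2801 effect for each line, with 3 residual and 4.48 prior degrees of freedom; the SUM159 JQ1 effect is the mean of its 2 pairs. The pairs come from the labels, by GSK2801. A gene was counted as moved when at least 2-fold the same way in both pairs with a mean of at least 50. Named genes are the 12 largest rises and falls, the 8 largest differences from the other lines each way, 5 genes whose pair ratios differ most with opposite signs, and up to 6 called members of each of 36 lists plus main genes of a list. Rises, falls and differences were ranked only among genes that passed the test in question and were counted as moved in SUM159. The members and lists were chosen with earlier results of these data known, and the lists were described by counts and medians. Positions come from GENCODE v29, which held 14030 (98.6%) of the tested symbols, and promoters from RefSeq. Alternatives were other pseudocounts, filters, scalings and variance models, a fit of SUM159 alone, and leaving out each SUM159 library. Without 1 SUM159 library, the other lines alone supply the error, with 2 residual degrees of freedom. Nothing in the labels says that libraries came from separate cultures. The error of the test is each line's departure from added JQ1 and GSK2801 effects, so p-values do not measure spread between repeats. Some genes are not reported here.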

Additional observations from a re-analysis of the deposited data

Results flagged for a closer look

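Among genes moved at least 2-fold the same way in both SUM159 pairs with a mean of at least 50, 16 are given below. Their JQ1 response in SUM159 differed most from the mean response of MDAMB231 and HCC1806 (limma test of the difference, adjusted p under 0.05). The values are log2 differences. Positive differences were 4.53 for PLCXD3, 4.00 for SCARA5, 3.54 for RASGRP1, 3.51 for UCA1, 3.18 for IGFL2-AS1, 2.97 for KLF2, 2.64 for AREG and 2.34 for SERPINE2. Negative differences were −6.98 for SULT1B1, −6.10 for RXFP1, −5.96 for COL3A1, −5.71 for FSIP2, −5.57 for PTCHD4, −5.57 for CRISP3, −5.04 for CD36 and −4.87 for PDGFRA. That each of the 16 genes moved the same way in both SUM159 pairs follows from how they were chosen.

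Without a library of 1 SUM159 pair the difference no longer passed for 4 of them. PLCXD3 had an adjusted p of 0.148 to 0.149, SCARA5 of 0.066 to 0.0665, AREG of 0.0572 to 0.0574 and CD36 of 0.0654 to 0.0662 by limma. SULT1B1, RXFP1, COL3A1, PTCHD4, CRISP3, CD36 and PDGFRA were at 14.3 or less in all 8 libraries of the other lines. A fall as large as that in SUM159 could not have been measured there, so for these 7 genes the difference says no more than the SUM159 change itself.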

How the results depend on the processing

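Over pseudocounts, filters and scalings, no named gene that had passed changed direction. Counts of rises and falls with JQ1 were 2149 and 4068 in the fit reported, 2837 and 3183 after TMM rescaling, 3144 and 2896 after quantile normalization, 323 and 875 when limma tested against 1.5-fold, 0 and 0 with the 4 SUM159 libraries alone, and 762 to 1064 and 1511 to 2092 without any 1 SUM159 library. With the 4 libraries alone, none of the 220 named genes that had passed still did. Without the GSK2801 terms, which form the replicate block, 1902 and 3776 passed. Positive differences from the other lines numbered 1219, 1925 after quantile normalization, 664 without a variance trend, 83 against 1.5-fold and 118 to 324 without any 1 SUM159 library. Negative differences numbered 2352, 416 against 1.5-fold and 472 to 858 without any 1 library. Genes moved in both pairs numbered 260 higher and 810 lower, 436 and 500 after quantile normalization, 774 and 1760 at 1.5-fold, 40 and 226 at 4-fold, and 451 lower with a mean of at least 200. After quantile normalization the falls numbered 17 against 27 for interferon response genes, 5 against 10 for Wnt genes, 2 against 5 for TGF-beta and BMP genes and 2 against 5 for cell cycle inhibitors and p53 targets. Among named genes, PLCXD3 (adjusted p 0.0572), UCA1 (0.0504) and MYC (0.051) lost their difference without a variance trend by limma, and PLCXD3 (0.0631), MYC (0.85), CDC6 (0.0511) and BRIX1 (0.263) against 1.5-fold. In these cases the cause was not tested, and the smaller fits also held fewer libraries. Values of a few reads, such as those of SULT1B1 with JQ1, carry counting error that scaled values do not show, and the size of such folds depends on the pseudocount.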
